A study of Mus musculus with 25 samples.

Results

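Genes for intermediate filament proteins and nuclear lamins were followed in neurons and astrocytes sorted from the brains of mice that carry a mutant human tau transgene and of their littermates. The 10 genes were chosen by name and all 10 were found among the 36528 gene IDs of the series. They are Gfap, Vim, Nes and Synm, the filament genes of astrocytes and progenitor cells, Nefl, Nefm, Nefh and Ina, the filament genes of neurons, and the lamin genes Lmna and Lmnb1. RNA was sequenced from 5 libraries of P301S astrocytes and 6 of non-Tg astrocytes, and from 6 libraries of P301S neurons and 8 of non-Tg neurons. P301S mice carried the hMAPT-P301S transgene, a human MAPT (tau) gene with the P301S mutation, and non-Tg mice were littermates without it. All mice were 6 months old. The labels do not name the promoter that drives the transgene. Neurons had been sorted for the nuclear antigen NeuN and astrocytes for Gfap itself. It is not stated in the labels if a library came from 1 animal or from pooled animals, or which libraries share an animal. The p-values therefore measure only the spread between these samples, which may be technical.

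Intermediate filaments are ropelike polymers that give cells mechanical strength, and each cell type builds them from its own proteins. Astrocytes use glial fibrillary acidic protein (Gfap) with vimentin (Vim), into which nestin (Nes) and synemin (Synm) copolymerise, and raised Gfap and Vim are classical features of reactive astrocytes. Neurons fill their axons with the light, medium and heavy neurofilament chains (Nefl, Nefm, Nefh) and internexin (Ina), while lamins A/C (Lmna) and B1 (Lmnb1) form the meshwork under the nuclear membrane.

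The genes lie at separate sites of the mouse genome (RefSeq annotation of GRCm38.p6), apart from Nefl (gene ID 18039, chr14:68083863-68089095) and Nefm (18040, chr14:68119545-68125004), which are neighbours. Vim (22352) is at chr2:13574311-13582826, Gfap (14580) at chr11:102887336-102897200 and Nefh (380684) at chr11:4938754-4948064. Nes (18008) is at chr3:87971093-87980451 and Lmna (16905) at chr3:88481148-88509932. Synm (233335) is at chr7:67730161-67759742 and Ina (226180) at chr19:47014681-47025327. The position of Lmnb1 is given with the lamins. No member's counts came closer than 19.4% to those of another gene over the 25 libraries, the nearest pair being Gfap and C4b.

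The 250 bases before the start of Vim (chr2:13574061-13574310, plus strand) and of Gfap (chr11:102897201-102897450, minus strand) are printed from RefSeq because these were the members that differed by genotype in astrocytes. They read 5′ to 3′ in the direction of the gene. Capitals mark a match to any of 4 motifs that were searched. These were the STAT site TTCNNNGAA, the AP-1 site TGANTCA and the Sp1 box GGGCGG on both strands, and the TATA box TATAAA on the strand of the gene, with no overlap between matches.
Vim: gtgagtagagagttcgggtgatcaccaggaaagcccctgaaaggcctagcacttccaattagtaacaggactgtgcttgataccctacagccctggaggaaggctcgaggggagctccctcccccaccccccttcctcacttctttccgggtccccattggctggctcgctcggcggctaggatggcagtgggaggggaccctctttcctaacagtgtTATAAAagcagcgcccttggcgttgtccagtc
Gfap: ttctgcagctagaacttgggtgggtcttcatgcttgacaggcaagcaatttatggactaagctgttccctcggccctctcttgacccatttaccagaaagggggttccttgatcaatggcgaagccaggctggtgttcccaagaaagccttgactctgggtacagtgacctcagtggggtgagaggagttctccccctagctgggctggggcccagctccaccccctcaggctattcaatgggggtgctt
In these windows the only match was the TATA box of Vim, 32 bases before the start, and TATAAA was found in 7.59% of 32851 such windows. Neither window held TTCNNNGAA (7.02% of all windows), TGANTCA (6.75%) or GGGCGG (32.7%). GGGCGG was found in the windows of Nes, Lmna and Ina. The GC content was 58.4% for Vim and 55.6% for Gfap, against a median of 52.4% over all windows. A match is a description of letters only.

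Libraries held between 1245964 and 4453555 counts, so 3 counts, taken as the floor of detection, corresponded to between 0.674 and 2.41 CPM (counts per 1000000 counts of a library). For neuron and astrocyte markers the sorted cells matched their labels. Of 11 neuron markers, 10 were higher in non-Tg neurons than in non-Tg astrocytes and 8 in the P301S pair, and all 11 astrocyte markers were lower in neurons in both pairs. Markers of some other cells were also lower in neurons in both pairs. These were 6 of 6 tested oligodendrocyte, 4 of 4 oligodendrocyte precursor and 5 of 8 mural and fibroblast markers. Of the mural and fibroblast markers 1 was higher in non-Tg and 2 in P301S neurons. Of 7 microglia and myeloid markers 0 were called, and the 1 endothelial marker tested was higher in neurons. Their part in the cell type differences was not tested. P301S astrocyte libraries 3 and 4 had the fewest genes detected of all libraries, and library 4 also had the lowest TMM scaling factor among astrocytes (0.614).

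In P301S astrocytes the 2 main glial filament genes rose. Gfap was 4.67-fold and Vim 4.09-fold higher than in non-Tg astrocytes, while the partner genes Nes and Synm and the neurofilament genes did not pass the test. Of the 8 members tested, 2 rose and 0 fell, against 66 of 12130 genes called in either direction (0.544%) in this comparison. The median log2 change was 0.91 over these members and 0.13 over all genes tested. That median lies between Lmna (0.46, edgeR adjusted p = 0.873) and Nefh (1.36, edgeR adjusted p = 0.562), neither of them called. Of the 8 changes 5 were above 0 and 3 below, so the median does not show a rise of the members as a set.

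Gfap had 724, 703, 941, 1007 and 722 CPM in the 5 P301S astrocyte libraries, against 77.3, 150 and 327 CPM as the lowest, median and highest of the 6 non-Tg astrocyte libraries. The groups did not overlap, and the lowest P301S library was above the highest non-Tg one. The means were 820 ± 143 CPM in P301S astrocytes and 175 ± 90.6 CPM in non-Tg astrocytes (SD, n = 5 and 6). The log2 change was 2.22 (SE 0.30, edgeR quasi-likelihood test, adjusted p = 5.12e-04), which ranked 5 by p among all genes tested. Gfap is also the antigen of the astrocyte sort, so the gate and this measurement share a gene.

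Vim had 74.7, 178, 70.3, 142 and 81.7 CPM in P301S astrocytes, against 19.9, 26.1 and 34.1 CPM as the lowest, median and highest in non-Tg astrocytes. These groups did not overlap either, although 2 P301S libraries stood well above the other 3. The means were 109 ± 48 CPM in P301S and 26.7 ± 5.95 CPM in non-Tg astrocytes (SD), a log2 change of 2.03 (SE 0.36, edgeR adjusted p = 0.00786). Gfap and Vim were the only tested members whose genotype groups did not overlap, which held for 260 of 12130 genes (2.14%). Vim is also expressed by other cell types, such as vascular cells and microglia.

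**Figure D1:**
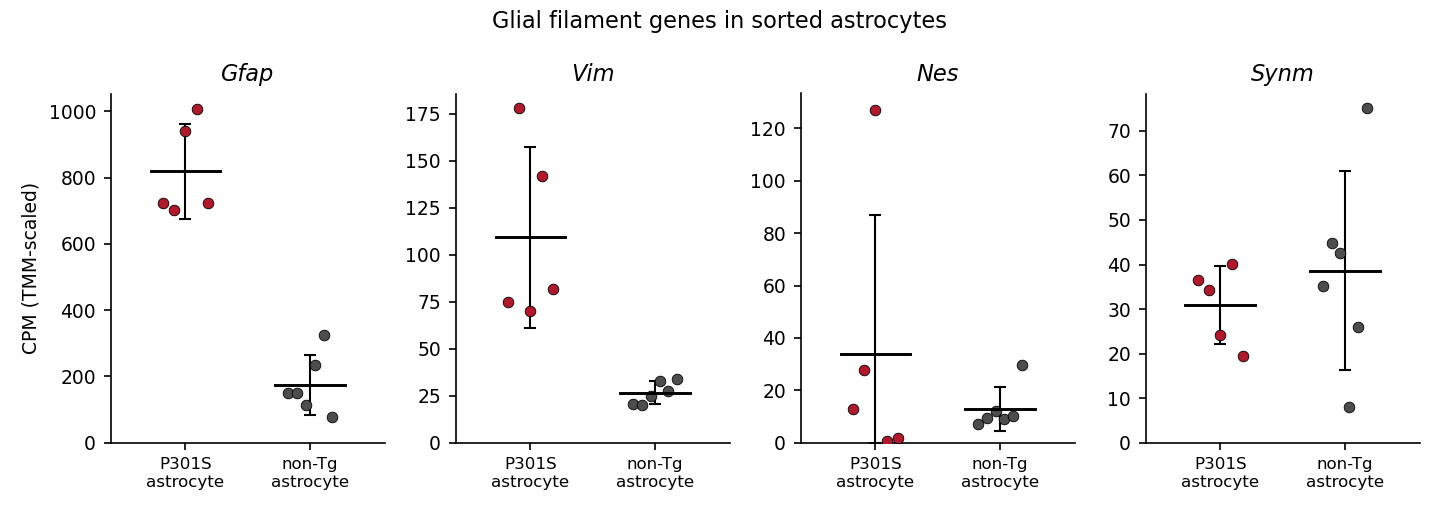
CPM of Gfap, Vim, Nes and Synm in each astrocyte library, P301S left and non-Tg right; points are libraries, bars the mean and whiskers the SD (the lower whisker stops at 0). The P301S points of Gfap (703 to 1007 CPM) and Vim (70.3 to 178 CPM) all lie above the non-Tg points, while those of Nes and Synm overlap them.

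Several features of the libraries were compared between genotypes beside these results, and their part was not tested. The ranges of all marker sums given here and below overlapped between the genotypes. The astrocyte marker sum ran from 9987 to 22746 CPM in P301S astrocytes, against 13110 to 24055 CPM in non-Tg astrocytes, with 0 of 11 markers called and none at 0. Set against that sum, Gfap came to a median of 6.13% in P301S and 0.964% in non-Tg astrocytes, and Vim to 0.706% and 0.141%, with no overlap for either gene. The neuron marker sum ran from 514 to 987 CPM (median 714) in P301S and from 539 to 616 CPM (median 605) in non-Tg astrocytes, with 0 of 9 tested markers called, a median log2 change of 0.50 and none at 0. The oligodendrocyte marker sum ran from 371 to 1002 CPM in P301S and from 182 to 500 CPM in non-Tg astrocytes (0 of 7 tested markers called). The sum of microglia and myeloid markers ran from 72.5 to 183 CPM in P301S and from 51.9 to 129 CPM in non-Tg astrocytes (0 of 6 called). The oligodendrocyte precursor sum ran from 21.2 to 381 CPM (median 279) in P301S and from 75.2 to 146 CPM (median 82.2) in non-Tg astrocytes. Of its tested markers 0 of 5 were called, with a median log2 change of 1.25. The overlap came from P301S astrocyte 4 alone (21.2 CPM), as the other P301S astrocytes had 195 to 381 CPM. No marker of these 3 lists was at 0 in all astrocyte libraries of a genotype.

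The endothelial marker sum ran from 0.863 to 25 CPM in P301S astrocytes, where Cldn5, Kdr and Esam were at 0 in every library, and from 0.792 to 36.4 CPM in non-Tg astrocytes. The mural and fibroblast sum ran from 65.7 to 178 CPM in P301S astrocytes, where Col3a1 was at 0, and from 113 to 214 CPM in non-Tg astrocytes (0 of 7 called). The ependymal sum reached at most 20.1 CPM in P301S astrocytes, where Pifo was at 0, and 17.8 CPM in non-Tg astrocytes. P301S astrocyte libraries also had fewer genes detected at a depth of 1000000 counts, 11968 to 16400 against 15083 to 17871 in non-Tg. Their mitochondrial share of counts was 3.61% to 11.4%, against 2.31% to 5.66% in non-Tg. The log2 difference between Xist and the Y-linked genes had a median of -1.41 in P301S astrocytes (-3.78 to -0.33). In non-Tg astrocytes it had a median of -3.37 (-4.89 to -3.07). Without P301S astrocytes 3 and 4 both genes were called (Gfap 2.03, edgeR adjusted p = 0.00609; Vim 2.06, adjusted p = 0.0117). With genes detected as a covariate neither gene was called (Gfap 1.62, adjusted p = 0.123; Vim 1.61, adjusted p = 0.996), and with microglia and oligodendrocyte markers as covariates Vim was not (2.37, adjusted p = 0.136). In bulk libraries a different number of expressing cells and a different amount of RNA per cell cannot be told apart.

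The 2 partner filament genes did not pass the test. Nes, the nestin gene of neural progenitors and some reactive astrocytes, had 12.9, 27.7, 127, 0.659 and 1.89 CPM in P301S astrocytes, against 7.33, 9.73 and 29.8 CPM as the lowest, median and highest in non-Tg astrocytes. P301S astrocyte 3 was far above all others and astrocyte 4 held a single count. The log2 change was 1.39 (SE 0.83, edgeR adjusted p = 0.473), -0.25 without library 3, and 0.14 without libraries 3 and 4.

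Synm, which encodes the linker-like filament protein synemin, had 36.6, 34.2, 24.2, 40.2 and 19.6 CPM in P301S astrocytes. In non-Tg astrocytes it had 8.12, 38.9 and 75.0 CPM as the lowest, median and highest. The non-Tg range enclosed the P301S range, and the log2 change was -0.32 (SE 0.49, edgeR adjusted p = 0.811).

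Among the neurofilament genes in astrocytes, low levels were read in both genotypes and none was called. The neuron marker sum in these libraries (514 to 987 CPM in P301S, 539 to 616 CPM in non-Tg) compares with 2298 to 3187 CPM in P301S neurons and 2416 to 3082 CPM in non-Tg neurons, and its part in these readings was not tested. Nefm, the medium chain, had 23.7, 32.0, 10.8, 49.4 and 18.6 CPM in P301S astrocytes, against 12.7, 24.9 and 57.8 CPM as the lowest, median and highest in non-Tg astrocytes (log2 change -0.05, SE 0.52, adjusted p = 0.976). Nefl, the light chain that forms the core of the filament, averaged 8.55 ± 6.45 CPM in P301S and 15.5 ± 10.2 CPM in non-Tg astrocytes (log2 change -0.87, SE 0.71, edgeR adjusted p = 0.622). The genotypes overlapped for both chains.

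Nefh, the heavy chain, averaged 8.35 ± 10.4 CPM in P301S astrocytes, where library 4 alone had 26.4 CPM, and 3.17 ± 2.05 CPM in non-Tg astrocytes (log2 change 1.36, SE 0.99, adjusted p = 0.562, and 0.67 without libraries 3 and 4). Ina had 0.244, 1.90, 0, 0 and 16.1 CPM in P301S astrocytes and at most 0.564 CPM in non-Tg astrocytes. It was too low to be tested. The signal of Ina in P301S astrocytes came almost wholly from library 5.

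In neurons no member passed the test for genotype. Of the 7 members tested, 0 were called and 6 had a log2 change above 0, with a median of 0.21 against -0.02 over all genes. Over all 10951 genes edgeR called 1 (0.00913%) while 846 had an unadjusted p under 0.05, and DESeq2 and voom called 49 and 41 genes without any member. The genotypes overlapped for all 7 tested members, and groups without overlap made up 0.219% of the genes tested.

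**Figure D2:**
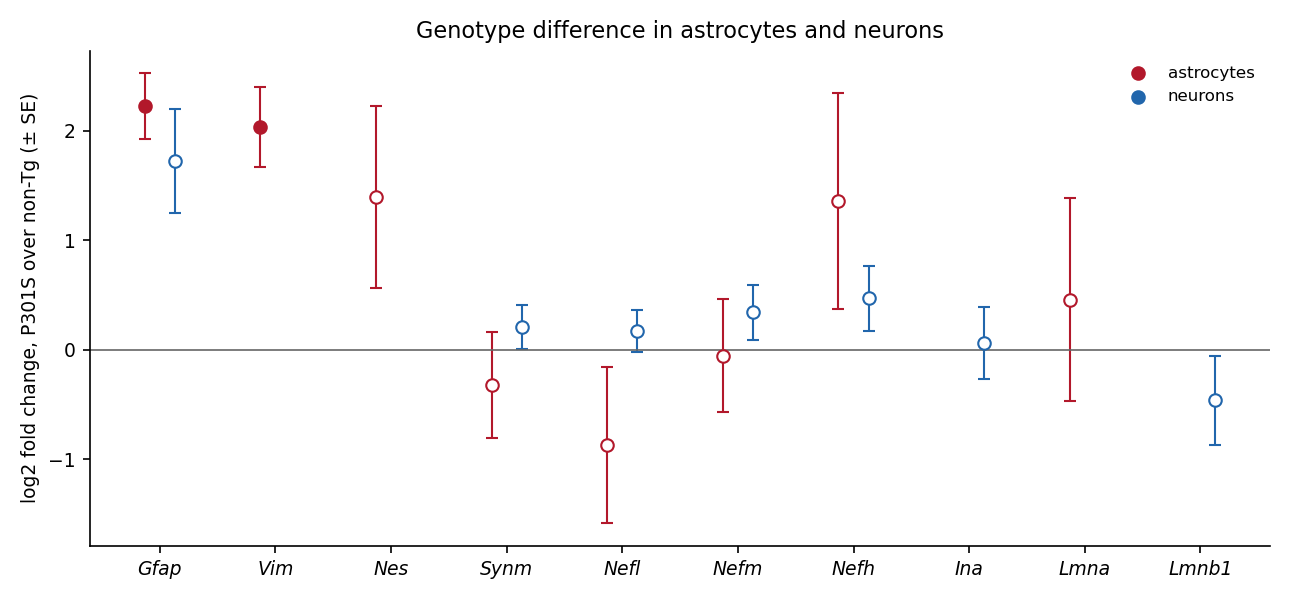
Log2 fold change of P301S over non-Tg for each member tested, in astrocytes and in neurons, with the SE as error bar; filled points passed an adjusted p of 0.05 and open points did not. Gfap (2.22) and Vim (2.03) in astrocytes are the filled points; members without a point were too low to be tested.

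Nefm was the most abundant of the members in neurons. It had 150, 209 and 370 CPM as the lowest, median and highest of the 6 P301S neuron libraries, against 112, 139 and 306 CPM in the 8 non-Tg neuron libraries. The ranges overlapped over most of their length, and the log2 change was 0.34 (SE 0.25, edgeR adjusted p = 0.789).

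Nefl had 19.2, 27.8 and 34.3 CPM as the lowest, median and highest in P301S neurons, against 15.9, 26.4 and 32.2 CPM in non-Tg neurons (log2 change 0.17, SE 0.19, edgeR adjusted p = 0.870). Nefh had 18.9, 31.3 and 43.9 CPM in P301S neurons, against 12.2, 18.6 and 45.7 CPM in non-Tg neurons (log2 change 0.47, SE 0.30, edgeR adjusted p = 0.744). Ina had 5.33, 14.0 and 19.2 CPM in P301S neurons, against 6.34, 9.98 and 27.8 CPM in non-Tg neurons (log2 change 0.06, SE 0.33, edgeR adjusted p = 0.977). For these 3 genes the difference between genotypes was within the spread between libraries.

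**Figure D3:**
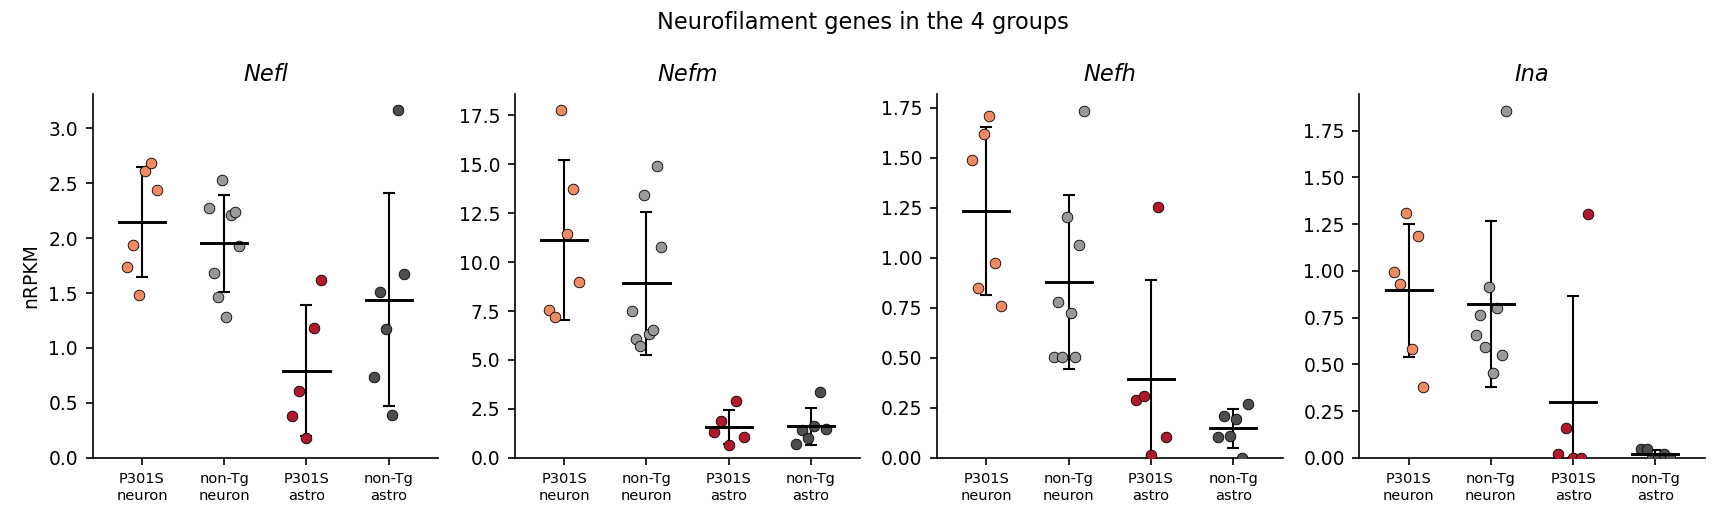
Length-normalised level (nRPKM) of Nefl, Nefm, Nefh and Ina in each library of the 4 groups; points are libraries, bars the mean and whiskers the SD. Nefm stands highest in neurons (11.1 in P301S, 8.91 in non-Tg), and P301S and non-Tg points overlap within each cell type.

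Gfap was read at low levels in neuron libraries. It had 2.61, 10.1 and 14.8 CPM as the lowest, median and highest in P301S neurons, against 0.634, 1.54 and 10.2 CPM in non-Tg neurons. The log2 change was 1.72 (SE 0.47) with an unadjusted p of 0.00163, and it was not called (edgeR adjusted p = 0.254). Of the 6 P301S neuron libraries, 5 were above the non-Tg mean. The floor of 3 counts was not passed in 4 of the 8 non-Tg neuron libraries, against 0 of the P301S ones. The sum of astrocyte markers ran from 529 to 860 CPM in P301S neurons and from 360 to 747 CPM in non-Tg neurons. Its part in the result was not tested. Gfap came to a median of 1.47% of that sum in P301S neurons and 0.298% in non-Tg neurons.

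Synm averaged 12.8 ± 2.37 CPM in P301S neurons and 10.9 ± 2.22 CPM in non-Tg neurons (log2 change 0.21, SE 0.20, edgeR adjusted p = 0.844). Vim reached at most 6.58 CPM in P301S neurons and 12 CPM in non-Tg neurons, and Nes at most 3.54 and 4.78 CPM. Vim and Nes fell under the filter on low counts in neurons and were not tested there.

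The difference between the genotype effect in astrocytes and that in neurons was tested in 1 fit of all 25 libraries. None of the 9 members tested was called by edgeR, which called 56 of 14197 genes (0.394%) and gave 2106 genes an unadjusted p under 0.05. DESeq2 and voom called 425 and 10 genes. For Vim the effect was larger in astrocytes by 1.90 (SE 0.68, adjusted p = 0.165), and for Gfap by 0.51 (SE 0.60, adjusted p = 0.750). For Ina it was larger by 3.58 (SE 1.18, adjusted p = 0.129), but by 1.02 without P301S astrocyte 5. Ina passed without P301S astrocyte 1 (adjusted p = 0.0494) and without P301S astrocytes 3 and 4 (adjusted p = 0.0258). The effect of genotype on Gfap and Vim was therefore not shown to differ between the cell types. It does not follow that they rise alike in neurons. There Gfap was not called, Vim was too low to be tested alone, and each had 3 counts or fewer in 4 of 8 non-Tg libraries.

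Between the sorted cell types most members split by the cell type they are known from. In non-Tg mice Nefm, Nefh and Ina were higher in neurons, and Gfap, Vim, Nes and Synm were lower. These 7 of 9 tested members compare with 46.9% of 14197 genes called (21.8% higher and 25.1% lower in neurons). Gfap, counted here and in P301S mice, is the antigen of the astrocyte sort, so its call checks the sort and is no finding. In P301S mice the higher members were Nefl, Nefm and Nefh, with the same 4 glial genes lower, against 52.3% of genes called, 23.2% higher and 29% lower. With RLE scaling the median log2 difference of all genes moved to 0.08 in non-Tg mice, against -0.11 with TMM, which changed none of these calls.

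Nefm had 5.69, 7.02 and 14.9 nRPKM (the authors' RPKM adjusted by a size factor, a level per gene length) as the lowest, median and highest in non-Tg neurons, against 0.706, 1.44 and 3.38 nRPKM in non-Tg astrocytes. The groups did not overlap, but the share of all genes without overlap between cell types was not counted. The log2 difference was 2.30 (SE 0.35, edgeR adjusted p = 1.29e-06). In P301S mice the difference was 2.72 (SE 0.39, edgeR adjusted p = 6.96e-07). Both calls were lost with endothelial and mural covariates (0.83 in P301S, 0.067 in non-Tg) and with microglia and oligodendrocyte covariates (0.014 in P301S, 0.18 in non-Tg). On the log2 scale the endothelial and mural covariate was at least 6.11 in astrocyte and at most 5.94 in neuron libraries. For the oligodendrocyte covariate these values were 7.52 and 6.59. Such covariates cannot be told apart from cell type. Nothing about a member is therefore read from calls lost or turned with them, here and below.

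Ina averaged 0.823 ± 0.443 nRPKM in non-Tg neurons and 0.0185 ± 0.0221 nRPKM in non-Tg astrocytes, where all 6 libraries held 3 counts or fewer (edgeR adjusted p = 3.74e-05, and 0.203 with microglia and oligodendrocyte covariates). In P301S mice it averaged 0.897 ± 0.356 nRPKM in neurons and 0.296 ± 0.567 nRPKM in astrocytes. That difference, 1.38 on the log2 scale (SE 0.79), was not called (edgeR adjusted p = 0.143), and without P301S astrocyte 5 it was 3.94 (adjusted p = 9.36e-05). Nefh was higher by 2.41 in non-Tg neurons (SE 0.62, edgeR adjusted p = 0.00151) and by 1.60 in P301S neurons (SE 0.65, adjusted p = 0.0392). The P301S call of Nefh was lost without any 1 of P301S astrocytes 1, 2, 3 and 5 or P301S neurons 1, 3 and 4 (adjusted p up to 0.0852). With the endothelial and mural covariate Nefh was -0.31 in both genotypes and not called (adjusted p = 0.855 in P301S, 0.895 in non-Tg).

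Nefl was not called in non-Tg mice, unlike Nefm and Nefh. It had 1.28, 2.07 and 2.53 nRPKM as the lowest, median and highest in non-Tg neurons, against 0.385, 1.34 and 3.17 nRPKM in non-Tg astrocytes, so the astrocyte range enclosed that of the neurons. The log2 difference in non-Tg mice was 0.26 (SE 0.41, edgeR adjusted p = 0.637). In P301S mice Nefl averaged 2.15 ± 0.5 nRPKM in neurons and 0.794 ± 0.595 nRPKM in astrocytes, a difference of 1.30 (SE 0.47, edgeR adjusted p = 0.0210). That call was lost without P301S astrocyte 1 or 3 (adjusted p up to 0.0511), and with microglia and oligodendrocyte covariates the direction turned (-0.68, adjusted p = 0.775). It was also lost with the sex marker covariate, with the endothelial and mural covariate and with the compared groups alone (adjusted p = 0.0885, 0.583 and 0.0807).

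Gfap, by which the astrocytes were sorted, was lower in neurons by 6.36 in non-Tg mice and by 6.87 in P301S mice on the log2 scale, which checks the sort and is no finding. Vim averaged 0.297 ± 0.355 nRPKM in non-Tg neurons and 2.69 ± 0.601 nRPKM in non-Tg astrocytes, a log2 difference of -3.26 (SE 0.46, edgeR adjusted p = 3.17e-07), and the difference was -5.16 in P301S mice (SE 0.54). Nes differed by -3.01 (SE 0.72, edgeR adjusted p = 7.48e-04) in non-Tg mice and -4.66 (SE 0.85) in P301S mice.

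Synm differed least of the glial genes. It averaged 0.222 ± 0.0461 nRPKM in non-Tg neurons and 0.91 ± 0.529 nRPKM in non-Tg astrocytes (log2 difference -2.20, SE 0.34, edgeR adjusted p = 1.81e-06), and the P301S difference was -1.67 (SE 0.38, adjusted p = 4.44e-04). With microglia and oligodendrocyte covariates Synm (-0.86 in P301S, -1.55 in non-Tg) and Nes (-0.58 in P301S, -0.19 in non-Tg) were not called, and with endothelial and mural covariates Nes was not called either (-2.27 in P301S, -0.81 in non-Tg).

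**Figure D4:**
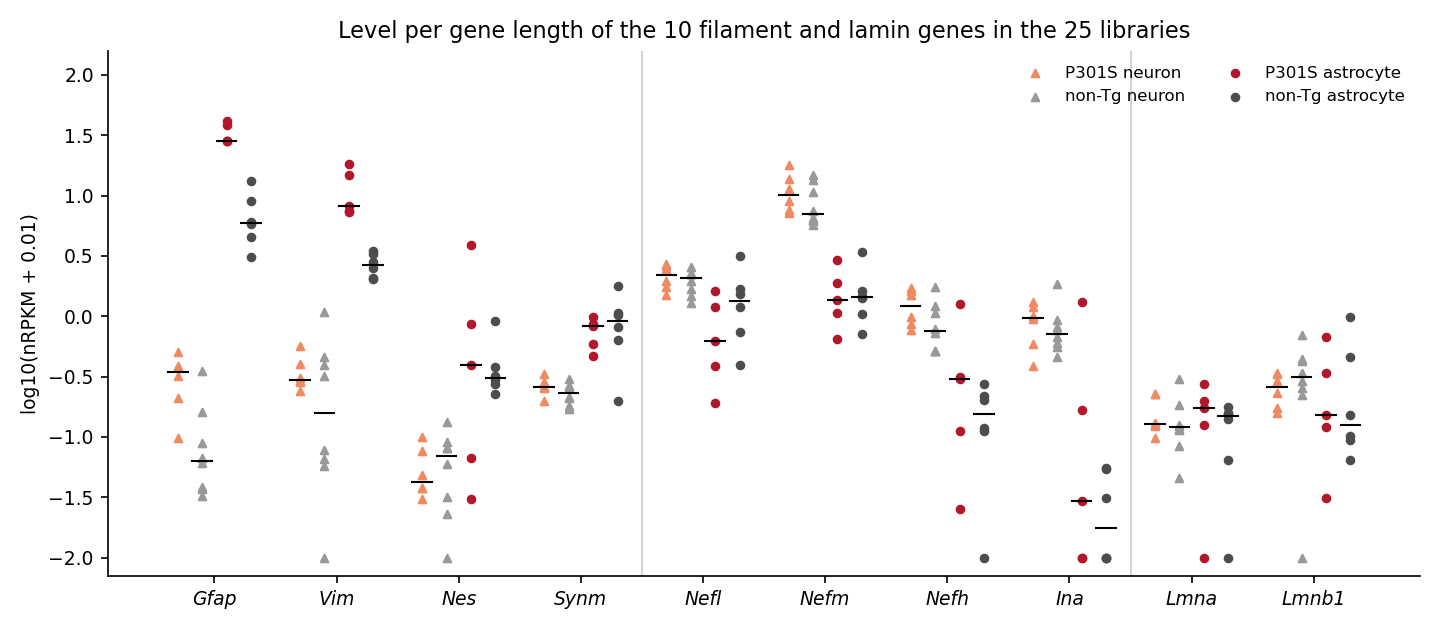
log10(nRPKM + 0.01) of the 10 genes in every library; triangles are neurons, circles astrocytes, and bars mark the group median. Gfap and Vim are high in astrocytes and highest in P301S astrocytes, and Nefm is high in neurons. Lmna and Lmnb1 are low in all 4 groups.

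Ordered by mean nRPKM, Gfap ran 32.9 in P301S astrocytes, 6.96 in non-Tg astrocytes, 0.305 in P301S neurons and 0.0949 in non-Tg neurons, with overlap only between the 2 neuron groups. Vim followed the same order, 11.2, 2.69, 0.338 and 0.297 nRPKM, again with overlap only between the neuron groups. For Nes the non-Tg astrocytes lay above the non-Tg neurons without overlap, for Synm the P301S astrocytes above the P301S neurons, and for Nefm the non-Tg neurons above the non-Tg astrocytes. All other neighbours in the order of these genes overlapped, as did all neighbours for Nefl, Nefh, Ina, Lmna and Lmnb1. The share of all genes without overlap between cell types was not counted, so these separations are a description only.

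The make-up of the filament transcripts can be read from each gene's share of their summed level. The 10 genes summed to 49.3 ± 9.23 nRPKM in P301S astrocytes and 14.6 ± 4.87 nRPKM in non-Tg astrocytes, with no overlap (39.5 to 62.8 in P301S, 10.7 to 23.7 in non-Tg). Gfap made up 67.1% ± 7.64 of this sum in P301S astrocytes, against 46.4% ± 12.8 in non-Tg astrocytes, and Vim 22.3% ± 8.03 and 19.4% ± 5.04. In neurons the sum was 16.7 ± 4.77 nRPKM in P301S and 13.7 ± 4.3 nRPKM in non-Tg, of which Nefm made up 65.3% ± 5.55 and 63.8% ± 6.87. Nefl came next at 13.7% ± 4.08 in P301S neurons and 14.9% ± 3.62 in non-Tg neurons.

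**Figure D5:**
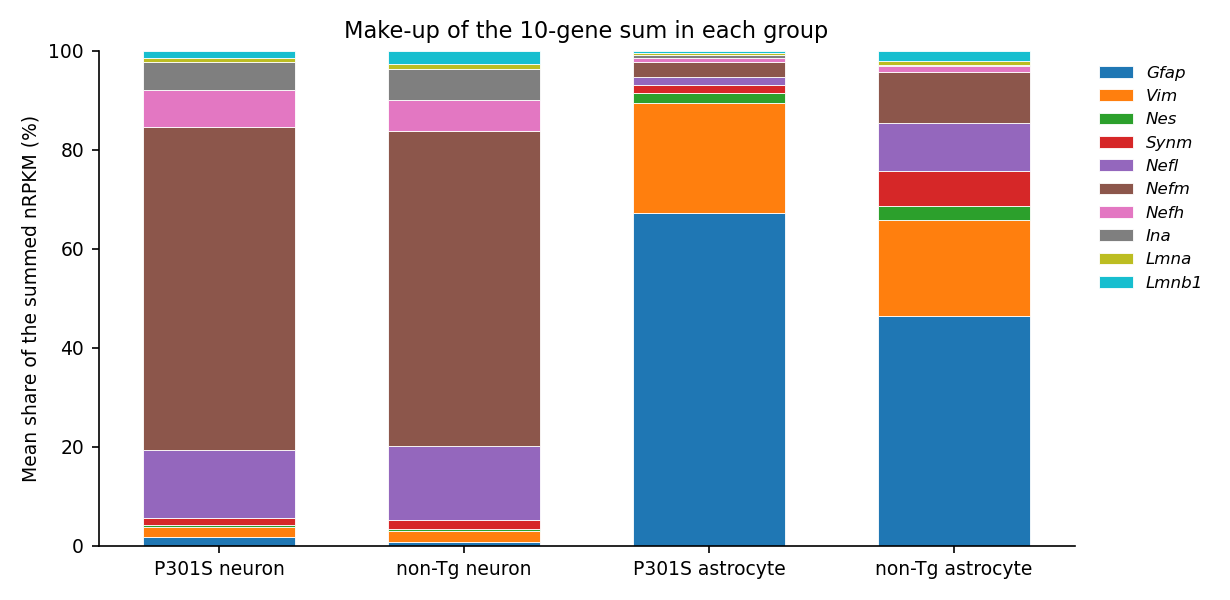
Mean share of each gene in the summed nRPKM of the 10 genes, in percent, for the 4 groups. Gfap takes 67.1% in P301S and 46.4% in non-Tg astrocytes, and Nefm takes 65.3% in P301S and 63.8% in non-Tg neurons.

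Ratios of partner genes within a library do not depend on its scaling, and 4 could be tested with a pseudocount of 1 count. The log2 ratio of Vim to Gfap was -2.99 ± 0.65 in P301S astrocytes, against -2.57 ± 0.82 in non-Tg astrocytes (SD, n = 5 and 6; exact permutation test, 2-sided, p = 0.381). The log2 ratio of Nefl to Nefm was -1.80 ± 0.99 in P301S and -0.93 ± 0.84 in non-Tg astrocytes (exact permutation p = 0.134). In neurons it was -2.99 ± 0.63 in P301S and -2.78 ± 0.41 in non-Tg (exact permutation p = 0.517), and that of Nefh to Nefm was -2.84 ± 0.55 in P301S and -3.04 ± 0.42 in non-Tg (exact permutation p = 0.449). All 4 adjusted p were 0.517. The other pairs had under 10 counts as a median in some group.

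The lamins were low everywhere. Lmna averaged 0.146 ± 0.0977 nRPKM in P301S astrocytes, 0.107 ± 0.0656 in non-Tg astrocytes, 0.145 ± 0.0562 in P301S neurons and 0.127 ± 0.0768 in non-Tg neurons. Only its genotype effect in astrocytes could be tested (log2 change 0.46, SE 0.93, edgeR adjusted p = 0.873). Lmnb1 (gene ID 16906, chr18:56707813-56753424) averaged 0.252 ± 0.254 nRPKM in P301S astrocytes, 0.3 ± 0.362 in non-Tg astrocytes, 0.244 ± 0.0784 in P301S neurons and 0.326 ± 0.199 in non-Tg neurons. Its genotype change in neurons was -0.46 on the log2 scale (SE 0.41, edgeR adjusted p = 0.832). Between cell types Lmnb1 differed by -0.11 in P301S mice and -0.04 in non-Tg mice (adjusted p = 0.914 and 0.968), a direction that turned with RLE scaling in non-Tg mice. At these depths a library held at most 37 counts of Lmnb1 and 26 of Lmna, so small differences were not detectable.

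Lists of related genes were read beside the members. The first held 11 linkers and chaperones that tie filaments to other structures. In astrocytes 8 of them were tested, 1 rose and 0 fell, against 0.544% of all genes called. The median log2 change was 0.16, close to the 0.13 of all genes, with 7 above 0. The gene that rose was Dst, which encodes dystonin, a plakin that links intermediate filaments to the rest of the cytoskeleton. It had 4787, 3154, 5613, 6515 and 4651 CPM in P301S astrocytes, against 1706, 2190 and 3110 CPM as the lowest, median and highest in non-Tg astrocytes, with no overlap. The log2 change was 1.13 (SE 0.20, edgeR adjusted p = 0.00733).

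In neurons Dst averaged 1340 ± 198 CPM in P301S and 1266 ± 278 CPM in non-Tg, and 0 of the 7 tested linkers were called there by edgeR. The 2 with the smallest p in neurons were Trim2, a ubiquitin ligase that acts on neurofilament light chain (0.13, adjusted p = 0.850), and Ppl, the plakin periplakin (-0.19, adjusted p = 0.885). The effect on Dst was larger in astrocytes than in neurons by 1.05 (SE 0.25, edgeR adjusted p = 0.0488). Without P301S astrocytes 3 and 4, left out after seeing the data, the changes were 0.89 (adjusted p = 0.0580) in astrocytes and 0.83 (adjusted p = 0.0786) for the difference. The log2 difference between Xist and the Y-linked genes ran from -3.78 to -0.33 in P301S astrocytes, against -4.89 to -3.07 in non-Tg astrocytes. With a covariate for these sex markers the changes in Dst were 0.72 (adjusted p = 0.445) and 0.78 (adjusted p = 0.195). With genes detected as a covariate they were 0.76 (adjusted p = 0.996) and 0.73 (adjusted p = 0.355), and with microglia and oligodendrocyte markers 1.06 (adjusted p = 0.433) and 1.07 (adjusted p = 0.0859).

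The second list held 21 other intermediate filament genes, of which 3 were tested in astrocytes and 5 in neurons, with 0 called in either by edgeR. Iffo1, an intermediate filament family gene, averaged 39.6 ± 6.34 CPM in P301S and 18.5 ± 6.08 CPM in non-Tg astrocytes (log2 change 1.10, adjusted p = 0.272). Lmnb2, the lamin B2 gene, had 73.8 CPM in P301S astrocyte 4 and at most 1.95 CPM in the other P301S astrocytes, against 2.00 to 10.5 CPM in non-Tg astrocytes. Its log2 change of 1.47 (adjusted p = 0.606) rests on that library and was -2.96 without it.

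In neurons the keratin genes Krt20 and Krt12 had the smallest p of that list. Krt20, a keratin of intestinal epithelium, averaged 4.34 ± 1.44 CPM in P301S and 7.74 ± 2.33 CPM in non-Tg neurons (log2 change -0.89, edgeR adjusted p = 0.361). Krt12, a keratin of the cornea, averaged 7.56 ± 2.59 CPM in P301S and 13.6 ± 5.59 CPM in non-Tg neurons (log2 change -0.86, edgeR adjusted p = 0.472). For both genes 6 of 6 P301S neuron libraries lay below the non-Tg mean. In astrocytes Krt12 was at 0 in all 6 non-Tg libraries and Krt20 in all 5 P301S libraries. The other genotype had a median of 0 CPM for each gene as well. A library held at most 3 counts of Krt12 in P301S and 21 counts of Krt20 in non-Tg astrocytes, so no genotype contrast can be read from them.

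The third list held 18 genes that process lamins or bind them at the nuclear envelope. For genotype 0 of 15 were called in astrocytes (median log2 change 0.10, against 0.13 over all genes) and 0 of 13 in neurons (median -0.10, against -0.02). Syne2, the nesprin-2 gene, averaged 245 ± 82.6 CPM in P301S and 144 ± 33.2 CPM in non-Tg astrocytes (log2 change 0.77, edgeR adjusted p = 0.196). Sun2, which anchors nesprins to the lamina, averaged 130 ± 51.5 and 69.2 ± 36.2 CPM in P301S and non-Tg astrocytes (0.91, edgeR adjusted p = 0.313). In neurons Sun1, its paralog, averaged 25.6 ± 6.29 CPM in P301S and 36 ± 7.71 CPM in non-Tg (-0.49, edgeR adjusted p = 0.538). Tmpo, a lamin-binding inner membrane protein gene, changed by -0.53 on the log2 scale (edgeR adjusted p = 0.683).

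Between cell types the lamin partners were lower in neurons wherever they were called. Of 16 genes tested, 8 were lower in P301S neurons and 5 in non-Tg neurons, and 0 were higher in either. Of all genes, 29% were lower and 23.2% higher in the P301S pair, and 25.1% lower and 21.8% higher in the non-Tg pair. In the non-Tg pair the share of the list called lower was close to that of all genes. Of the P301S calls, Icmt turned direction with microglia and oligodendrocyte markers as covariates and Rce1 with endothelial and mural markers. The list's median log2 difference was -1.08 in P301S and -0.54 in non-Tg mice, against -0.21 and -0.11 over all genes. Sun2 had 0.381 ± 0.123 nRPKM in P301S neurons and 5.99 ± 2.35 nRPKM in P301S astrocytes (log2 difference -4.13, edgeR adjusted p = 1.60e-10). Syne2 had 0.196 ± 0.0187 nRPKM in P301S neurons and 2.11 ± 0.74 nRPKM in P301S astrocytes (-3.56). Dst, which belongs to the list of linkers and not to the lamin partners, differed by -2.28 in P301S mice (SE 0.19) and by -1.23 in non-Tg mice (SE 0.17). The linkers went both ways, as 2 of 7 tested were lower and 2 higher in neurons in each genotype. The higher ones were Trim2 and Dsp.

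The genes whose log2 CPM followed a member most closely over the 25 libraries were listed as a description for the 9 members tested in the fit of all libraries, without Lmna, with libraries of both cell types and their depth shared by all genes. For Gfap they were Rapgef3, Hipk2 and Fgfr1 (Pearson r 0.978, 0.978 and 0.976). For Vim they were Agpat3, Hip1 and Fxyd1 (r 0.958, 0.948 and 0.943), for Synm Slc25a35, Nat8f5 and Wwtr1 (0.915, 0.905 and 0.900), and for Nes Fermt2, Micalcl and Kank2 (0.896, 0.892 and 0.886). Among the closest to Nefm were Rbfox3 and Sipa1l1 (0.927 and 0.926), Rbfox3 being the gene of the sorted antigen NeuN.

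For Nefh the closest were Cpne6, Lrrn2 and Bcat1 (r 0.921, 0.885 and 0.883), and among the closest to Ina were Car7 and Cacna1h (0.958 and 0.933). For Nefl they were Pex3, Faf1 and Lrrc39 (0.840, 0.838 and 0.821), and among the closest to Lmnb1 were Rbmxl1 and Med17 (0.720 and 0.626). Over the 11 astrocyte libraries alone, the closest to Gfap were C4b, Rnf213 and Pdlim4 (0.983, 0.968 and 0.965). The closest to Vim were Ifit1, Septin8 and Col2a1 (0.928, 0.925 and 0.924). Gfap and Vim were taken because they were called for genotype, and these libraries hold both genotypes. A gene that is higher in P301S astrocytes would tend to follow them for that alone, so these r are a description only.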

How the data were processed

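Each deposited file gives, per gene, a count, which per the file headers is of reads uniquely aligned to a gene model, and an RPKM value adjusted by a size factor (nRPKM), computed by the authors. The submitters' processing notes name GSNAP and GRCm38. The version of GSNAP and of the gene models is not given in the sources used here. Of 36528 gene IDs, 31049 were matched to a symbol in RefSeq (GRCm38.p6). The other 5479 held 3.30% of counts and stayed in the tests. Reads carried no molecular identifiers, so floors cover counting error only. Cd11b+ myeloid cells of the same experiment were not analysed here.

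Counts were tested with edgeR 4.0.16 in R 4.3.3 (TMM scaling, filterByExpr at its defaults, robust quasi-likelihood F test), and calls were made where the p adjusted by Benjamini-Hochberg over all genes tested was under 0.05. Genotype was compared within each cell type, and cell types and the difference of genotype effects in 1 fit of all 25 libraries. SE is the log2 change divided by the square root of F. CPM were scaled by TMM within a cell type, and marker sums are of CPM of the library total. Genes were compared with each other as nRPKM. For likeness, log2 CPM had a prior count of 2. Ratios were tested by exact permutation, 2-sided.

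All members are described. Of the related lists, the genes called for genotype are named, or else up to 2 per list and comparison with the smallest p. For likeness, the 3 closest genes are named, apart from a few not reported here. The members and lists were chosen with earlier results of these data known. Alternatives were RLE factors, DESeq2 1.42.0, voom of limma 3.58.1 with sample weights, other filters, covariates for sex markers, for markers of other cells and for genes detected, all libraries or the compared groups in 1 fit, non-Tg neurons without another range of sample identifiers, and each library left out in turn. P301S astrocytes 3 and 4 were left out as an alternative chosen after seeing the data. The count test was tested on simulated data.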

Additional observations from a re-analysis of the deposited data

Results flagged for a closer look

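Of 48 groups of libraries looked at for 1 library far from the rest, 11 held one by Dixon's test, and chance flags about 1 in 20 groups. In astrocytes these were the 127 CPM of Nes in P301S astrocyte 3 and its 29.8 CPM in non-Tg astrocyte 6, the 26.4 CPM of Nefh in P301S astrocyte 4, the 16.1 CPM of Ina in P301S astrocyte 5 and the 57.8 CPM of Nefm in non-Tg astrocyte 5. In neurons they were the 10.2 CPM of Gfap in non-Tg neuron 4, the 12 CPM of Vim in non-Tg neuron 5 and the 27.8 CPM of Ina in non-Tg neuron 8. The log2 ratio of Nefl to Nefm stood apart in P301S astrocyte 5 (-0.074), in non-Tg astrocyte 4 (-2.63) and in P301S neuron 3 (-4.23).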

How the results depend on the processing

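No paired analysis was possible because the labels give no replicate numbers and tie no libraries to animals. The library numbers used here only name libraries. In astrocytes 2 members were called in each of the 11 fits that left out a library, 1 with microglia and oligodendrocyte covariates and 0 with genes detected. In neurons 0 members were called throughout. For the difference of effects 1 was called without P301S astrocytes 3 and 4, and 0 to 1 without a single library. The 7 members called between cell types became 4 (endothelial and mural covariate) and 2 (microglia and oligodendrocyte covariates) in both genotypes. In P301S mice they became 4 with the compared groups alone and 5 to 7 without a single library. The cause was not tested. The endothelial and mural covariate and the oligodendrocyte covariate did not overlap between neuron and astrocyte libraries. Genes detected did not overlap in the P301S pair (at most 16400 in astrocytes, at least 17800 in neurons). Cell type and these covariates cannot be told apart. Calls lost or directions turned with them between cell types are therefore not read as a result.

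Over all genes, the 66 called in astrocytes became 441 with DESeq2, 119 with voom, 561 with no filter, 15 with sex markers, 226 with endothelial and mural markers, 10 with microglia and oligodendrocyte markers, 0 with genes detected, 1682 in 1 fit of all libraries and 42 without P301S astrocytes 3 and 4, and 27 to 136 without a single library. In neurons the 1 gene called became 49 with DESeq2, 41 with voom, 17 with no filter, 10 at 1 CPM, 16 with microglia and oligodendrocyte markers, 7 with genes detected and 38 without the other identifier range, and 0 to 23 without a single library. For the difference of effects, 56 became 425 with DESeq2, 10 with voom, 11 with microglia and oligodendrocyte markers, 12 without the other identifier range and 266 without P301S astrocytes 3 and 4, and 9 to 522 without a single library. Between non-Tg cell types 6659 became 2886 and 2794 with the 2 kinds of cell marker covariate. Between P301S cell types 7420 became 3629 and 2098 with them, 3437 with genes detected and 4925 with the compared groups alone.

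Directions that turned were those of log2 values not called, except the cell type differences of Nefl, Nefh, Icmt and Rce1. In astrocytes, for genotype, Nes was -0.091 with voom and -0.90 with microglia and oligodendrocyte markers. Nefm was 0.11 with voom, 0.30 with sex markers and 1.07 with microglia and oligodendrocyte markers, with which Nefl was 0.52 and Lmna -0.030. Nefh was -0.69 with endothelial and mural markers. Lmnb2 was -1.92 with voom, -2.57 with sex markers, -4.82 with endothelial and mural markers, -2.56 with genes detected and -2.58 without P301S astrocytes 3 and 4. In neurons Nefm was -0.023 with endothelial and mural markers, Lmnb1 0.14 with voom, and Ppl 0.025 with voom and 0.0066 with microglia and oligodendrocyte markers.

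For the difference of effects, Gfap was -0.14 with genes detected, Nefm 0.16 with microglia and oligodendrocyte markers and Krt20 0.057 with voom. Lmnb1 was -0.13 with voom, -0.67 with sex markers, -0.045 with endothelial and mural markers, -0.40 with microglia and oligodendrocyte markers, -1.18 with genes detected, -0.30 without the other identifier range and -0.21 without P301S astrocytes 3 and 4. Between non-Tg cell types Nefl was -0.28 and Nefh -0.31 with endothelial and mural markers, and Nefl -1.27 with microglia and oligodendrocyte markers. Lmnb1 was 0.16 with RLE, 0.16 with DESeq2, 0.39 with voom, 0.041 with no filter, 0.11 at 1 CPM, 0.79 with microglia and oligodendrocyte markers, 0.67 with genes detected and 0.064 without P301S astrocytes 3 and 4.

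Between P301S cell types Nefl was -0.68 with microglia and oligodendrocyte markers, Nefh -0.31 with endothelial and mural markers and Ina -1.12 with genes detected. Lmnb1 was 0.53 with voom, 0.012 with no filter, 0.056 at 1 CPM, 0.48 with sex markers, 1.19 with microglia and oligodendrocyte markers, 1.85 with genes detected and 0.27 without P301S astrocytes 3 and 4. Icmt was 0.43 with microglia and oligodendrocyte markers and Rce1 0.93 with endothelial and mural markers.

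Without a single library, Nes ran from -0.25 to 1.83, Nefm from -0.38 to 0.30 and Lmnb2 from -2.96 to 1.79 in astrocytes, and Ina from -0.090 to 0.42 in neurons. For the difference of effects Gfap ran from -0.072 to 0.80, Nefh from -0.15 to 1.13 and Lmnb1 from -0.55 to 0.91. Between cell types Lmnb1 ran from -0.22 to 0.81 in non-Tg and from -0.41 to 0.54 in P301S mice. The genotype difference in the log2 ratio of Nefl to Nefm in neurons ran from -0.29 to 0.045. Gfap in astrocytes stayed between 1.62 and 2.53 over the 11 alternatives, and Vim between 1.61 and 2.37. Neither gene was called with genes detected, and Vim was not called with microglia and oligodendrocyte markers. In the fits that left out a single library, Gfap stayed between 2.07 and 2.50 (edgeR adjusted p at most 0.00331). Vim stayed between 1.79 and 2.15 in those fits (edgeR adjusted p at most 0.0382). Depth limits Lmna, Lmnb1, Ina in astrocytes, Vim and Nes in neurons, and Gfap in non-Tg neurons. These lay near the floor of 3 counts in many libraries.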
